A study of Drosophila melanogaster with 58 samples.

Results

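The mitochondrial ribosomal protein (mRp) genes were followed through wing metamorphosis and after forced cell cycling. Members were all genes whose FlyBase symbol starts with mRpL or mRpS and a digit. This rule found 71 of the 17559 genes counted, of which 47 carry large subunit (mRpL) and 24 small subunit (mRpS) names. A filter on low counts left 70 of them in both fits. The remaining gene, mRpL53, had no reads in any of the 24 libraries, and 100% of its exon bases are shared with other genes on the same strand, so its level could not be measured. The levels played no part in choosing the genes.

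Mitochondria carry their own small genome, which encodes core subunits of the respiratory chain, and they translate it on their own ribosomes. The proteins of these ribosomes are encoded in the nucleus, made in the cytosol and imported. Some descend from bacterial ribosomal proteins and others are found only in mitochondria. Subunits are given here by symbol. In mammals, the counterparts of mRpS18A and mRpS30 were located in the large subunit despite their S names.

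RNA was collected from whole female wings. The wild-type stages were wandering larvae of the third instar (L3) and pupae at 6, 18, 24, 36 and 44 h after puparium formation (APF), with 2 libraries per stage. The transgenic wings were taken at 24 h and 44 h APF, with 2 libraries per genotype and time. All 3 genotypes carried hs-FLP, tub>CD2>GAL4, UAS-GFP and tub-gal80TS. The control held nothing further, E2F wings added UAS-E2F1 and UAS-DP, and E2F+CycD wings added UAS-CycD and UAS-Cdk4 as well. In the genotypes listed, UAS-E2F1 and UAS-DP lie opposite the GAL4 driver in E2F wings. They lie opposite tub-gal80TS, on another chromosome, in E2F+CycD wings. A larval heat shock induced the flippase that removes the CD2 cassette, so GAL4 acts in the cells where this removal took place. The heat-sensitive Gal80 held it off until pupae were moved from a cooler to a warmer temperature. The transgenic times are therefore not elapsed hours, as the paper converted them to equivalent stages at a standard temperature. E2F1 with DP is the transcriptional activator of S phase genes, and Cyclin D with Cdk4 relieves its repression by the retinoblastoma proteins. The study used E2F to delay the end of cycling and E2F+CycD to bypass it.

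Reads on genes numbered 1900774 to 7512920 in the wild-type libraries and 11201219 to 16332737 in the transgenic ones. Levels are CPM, counts scaled to a common library size after TMM scaling, and the wild-type and transgenic libraries were scaled apart. Fold changes, standard errors (SE) and adjusted p values come from edgeR's quasi-likelihood test with Benjamini-Hochberg adjustment over all genes tested, and a gene was called at an adjusted p under 0.05. Nothing in the sources says that the 2 libraries of a group came from separate cultures, so p values measure the spread between these libraries, which may be technical. The 4 wing epithelium markers (vg, nub, sd, rn) were present in every library, with summed levels of 564 to 1598 CPM in the wild type and 1407 to 2413 CPM in the transgenic wings. Replicate 2 stood above replicate 1 for 68 of 70 members at 18 h and at 44 h and for 60 of 70 at 24 h, with median log2 differences of 0.36, 0.42 and 0.26. Other genes with under 1000 exon bases had median differences of 0.29 at 18 h, 0.30 at 24 h and 0.01 at 44 h. Summed muscle markers differed between the 44 h libraries as well, at 326 CPM in replicate 1 and 1482 CPM in replicate 2.

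Stretches upstream of 6 members are printed as examples. These genes are among those with large differences below, and mRpL20 is one of the few in the other direction. Other members with differences as large, such as mRpS14 and mRpL9 in E2F wings at 24 h, are not printed. Motif shares should therefore not be read from these 6. The stretches end 1 base before the annotated 5′ end and are read 5′ to 3′ on the gene's strand. Each holds up to 130 bases, and that of mRpS18A is 79 bases long because the next gene starts there. They were read from the RefSeq copy of the Release 6 (dm6) genome. Capitals mark matches to the DNA replication-related element (DRE, TATCGATA), the E-box CACGTG or the E2F letters TTTNNCGC, searched on both strands.
mRpS18A (chr3R:8562594-8562672, minus strand, no match): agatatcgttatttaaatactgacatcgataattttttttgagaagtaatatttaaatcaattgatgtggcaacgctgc
mRpL16 (chrX:1890126-1890255, plus strand, E-box and DRE): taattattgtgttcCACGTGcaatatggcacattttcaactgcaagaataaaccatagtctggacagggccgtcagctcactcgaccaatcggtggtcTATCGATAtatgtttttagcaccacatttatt
mRpS25 (chrX:14582983-14583112, minus strand, DRE): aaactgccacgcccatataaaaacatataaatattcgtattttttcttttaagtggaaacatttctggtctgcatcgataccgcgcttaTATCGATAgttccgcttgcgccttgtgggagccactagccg
mRpL39 (chr3L:14999667-14999796, minus strand, DRE): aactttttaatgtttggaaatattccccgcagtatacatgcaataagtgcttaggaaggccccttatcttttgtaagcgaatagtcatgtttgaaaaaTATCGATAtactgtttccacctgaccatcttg
mRpL36 (chr3L:8125133-8125262, minus strand, E2F letters on both strands): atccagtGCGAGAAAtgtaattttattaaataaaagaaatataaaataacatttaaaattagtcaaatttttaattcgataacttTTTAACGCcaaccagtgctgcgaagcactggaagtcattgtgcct
mRpL20 (chr3L:13017868-13017997, minus strand, DRE): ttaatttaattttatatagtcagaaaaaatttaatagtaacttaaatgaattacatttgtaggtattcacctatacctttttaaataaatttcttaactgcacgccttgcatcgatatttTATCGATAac

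Over windows of 250 bases before to 50 bases after the 5′ end, 15 of 71 members (21.1%) held the DRE, against 9.21% of all protein-coding genes. The motif 1 core GGTCACAC, common in promoters of broadly expressed fly genes, was in 11.3% of members against 7.67% of protein-coding genes. The E-box, which Myc recognises, was in 7.04% against 4.19%. The E2F letters were in 16.9% of members against 19.7% of protein-coding genes. These matches describe letters in a window, not binding.

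Many members start close to another gene. A protein-coding neighbour on the opposite strand, with its 5′ end at most 500 bases upstream, was found for 51 of 71 members (71.8%), against 24.5% of all protein-coding genes. Such pairs share the sequence between their starts. mRpL16 lies 306 bases from trr, a histone methyltransferase gene, and mRpL21 lies 279 bases from rept, which encodes a helicase of chromatin remodelling complexes. mRpS7 starts 400 bases from Cdk1, the mitotic kinase gene.

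Members are short genes, with a median of 783 exon bases and a range of 327 to 2078. Per exon kilobase, their mean wild-type level had a median of 23.3 CPM and spread 10.8-fold, from 8.35 CPM for mRpL21 to 90.4 CPM for mRpL33. mRpL30 at 77.4 and mRpS16 at 59.9 CPM per kilobase followed mRpL33, whereas mRpS35 at 11.6 and mRpL38 at 12.9 stood next to mRpL21 at the low end. For 27 members, over 5% of exon bases are shared with another gene. The counting's strand setting is not given in the sources used here, so levels of mRpL13 (35.2% shared on the same strand) and of members with antisense partners are uncertain to that extent.

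The summed level of the members was highest in the larva and lowest at 36 h. The L3 libraries read 2104 and 1997 CPM, those of 6 h 1441 and 1589, those of 18 h 1358 and 1751 and those of 24 h 1387 and 1682. The 36 h libraries read 980 and 901 CPM, and those of 44 h 1031 and 1368. The means were 2050 ± 75.1 CPM at L3 and 940.6 ± 55.5 at 36 h (SD, n = 2). The L3 libraries lay above all others, and those of 36 h lay below all others. In these bulk samples, fewer cells of a type and less RNA per cell cannot be told apart.

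**Figure D1:**
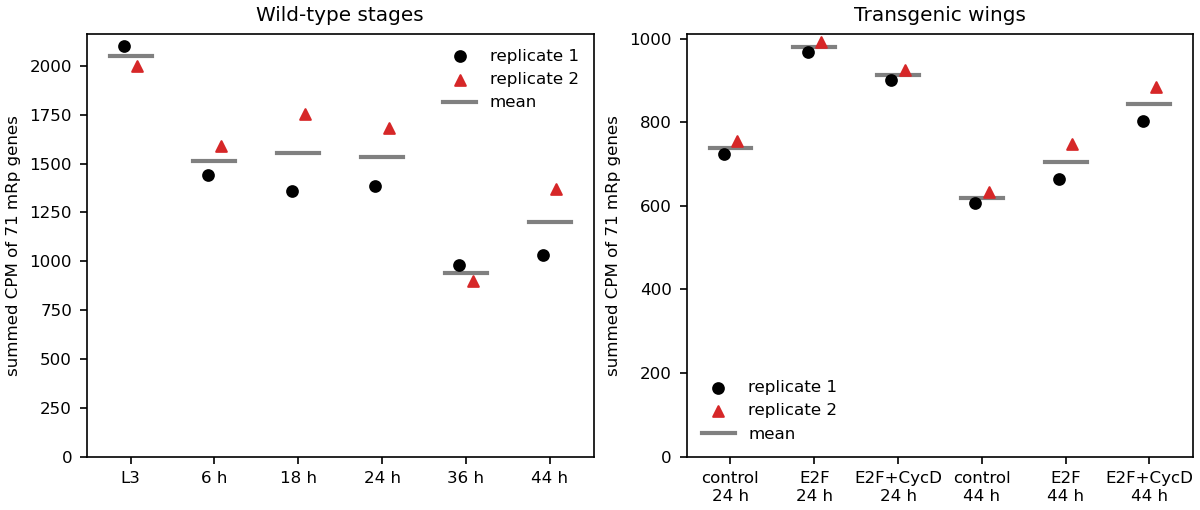
Summed CPM of the 71 mRp genes in each library (left, 6 wild-type stages; right, 3 genotypes at 24 h and 44 h APF), with circles for replicate 1, triangles for replicate 2 and bars for the mean; the panels are scaled apart. The wild-type sum falls from 2104 and 1997 CPM at L3 to 980 and 901 at 36 h, and the E2F+CycD wings at 44 h (803 and 885) lie above their controls (606 and 632).

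Across the 6 stages, 61 of 70 members changed (adjusted p under 0.05 in edgeR's test over all stages), where 83.5% of all genes tested did. The stage mean was highest at L3 for 52 members and lowest at 36 h for 46. mRpS30 had the widest range of fitted stage levels, 2.33 on the log2 scale (edgeR adjusted p = 0.00014), with 62.5 and 69.6 CPM at L3 and 16.18 and 10.05 CPM at 36 h. mRpS24 followed with 2.14, mRpL44 with 2.08, mRpL39 with 1.98 and mRpS18A with 1.96. mRpL10, a protein of the ribosomal stalk, had the narrowest range at 0.29 (adjusted p = 0.96), and mRpS9 at 0.36 and mRpL30 at 0.49 did not pass the test either. A few members had their highest mean late. mRpL42, a protein specific to mitochondrial ribosomes, read 27.6 and 32.9 CPM at 44 h and 17.7 and 22.6 CPM at 18 h, its lowest stage, but its 44 h libraries overlapped with those of L3, 6 h and 36 h. mRpL43 and mRpS9 also had their highest mean at 44 h, and mRpL24 and mRpL39 at 18 h, with libraries that likewise overlapped with other stages.

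**Figure D2:**
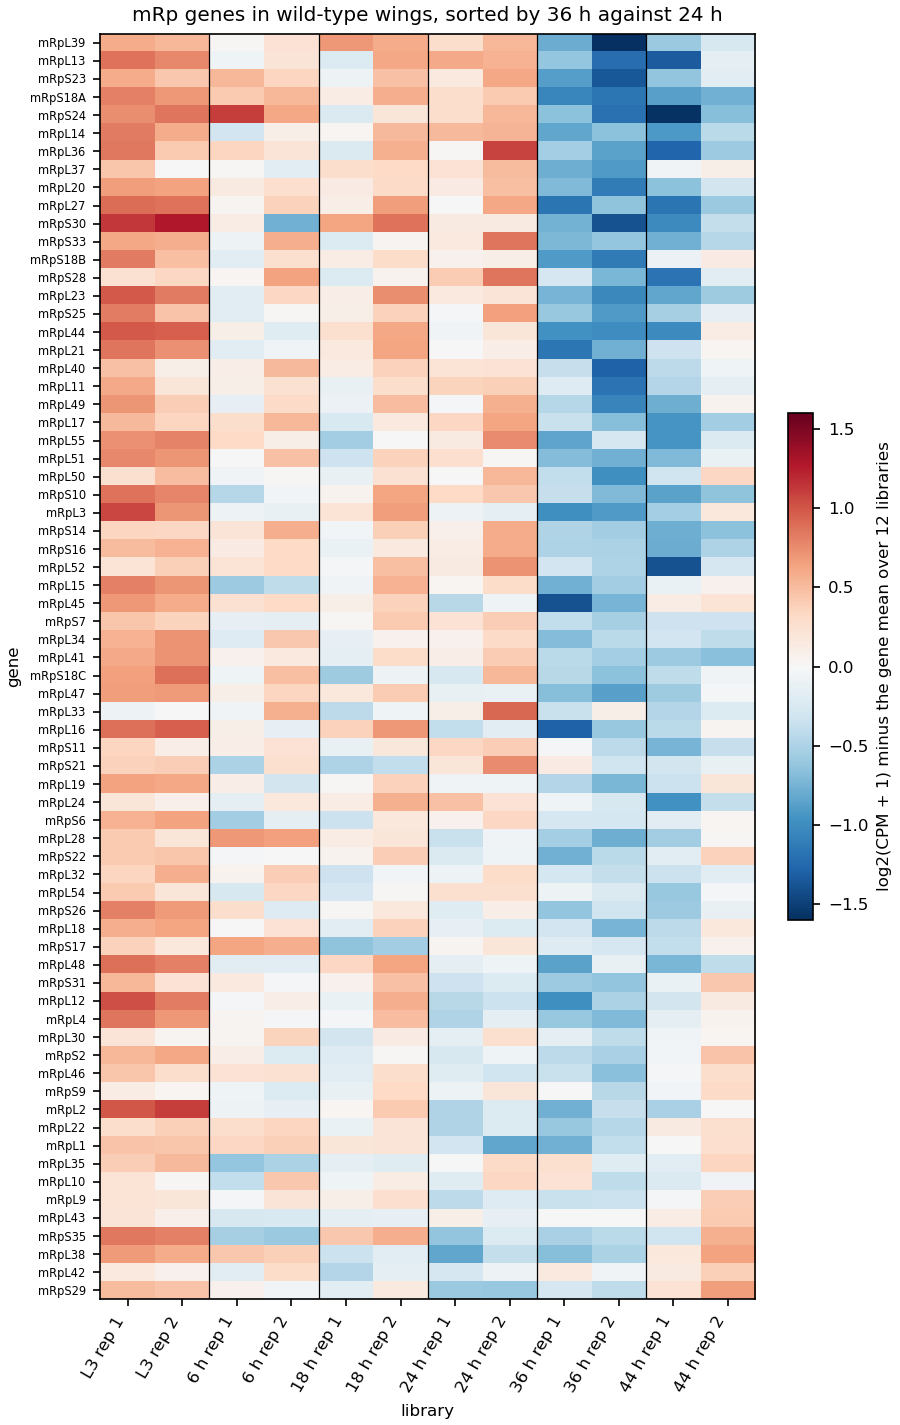
Level of each of the 70 tested mRp genes in the 12 wild-type libraries, as log2(CPM + 1) minus the gene's mean over the libraries (red above, blue below), sorted by the change from 24 h to 36 h with the lowest at the top. The L3 columns are red and the 36 h columns blue for most genes, and replicate 2 is the redder library at 18 h, 24 h and 44 h.

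From L3 to 6 h, when wing cells pause in G2, 21 of 70 members fell and 0 rose, where 22.3% of all genes fell and 23.5% rose. The median log2 change of the members was -0.46, against 0.11 for other genes of under 1000 exon bases. mRpS35, a mitochondria-specific protein, read 22.6 and 22.0 CPM at L3 and 8.14 and 7.70 at 6 h, a log2 fold change of -1.49 (SE 0.30, adjusted p = 0.00163). mRpS30 fell from 62.5 and 69.6 CPM to 30.5 and 16.0, by 1.48 on the log2 scale. mRpL15 fell by 1.32, mRpL2, which lies near the catalytic centre of the ribosome in bacteria, by 1.20, and mRpL35 by 1.12. The libraries of the 2 stages did not overlap for any of these 5 genes. Without L3 replicate 1 the count was 9. With library totals, which put the median log2 change of all genes at -0.57, 60 fell and 0 rose. The 6 h libraries were the least alike pair of replicates by their chi-square per degree of freedom (111.8) and correlation (Pearson's r = 0.937 over log2 CPM), and without replicate 1 or 2 of them 17 and 21 members fell. All 3 fat body markers tested rose in this step, and the summed list went from 2.51 and 3.77 CPM to 91.2 and 497 CPM. For hemocyte markers 2 of 5 rose and 2 fell. The part of these cells in the result was not tested.

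From 6 h to 18 h, when cells enter their final cycles, 3 members rose and 3 fell, against 22.3% and 22.8% of all genes. Scaling by library totals, which put the median gene at 0.53 on the log2 scale, gave 29 higher and 1 lower members. mRpS35 rose again, to 16.8 and 18.7 CPM (log2 fold change 1.16, SE 0.30, adjusted p = 0.00853). mRpS30 and mRpL15 rose by 1.02 and 0.81. These 3 genes had all fallen in the step before, with which this one shares the 6 h libraries. mRpS17 fell from 36.9 and 35.7 CPM to 14.7 and 15.6 (log2 -1.26, SE 0.21, adjusted p = 0.000387), and mRpS24 and mRpL38 fell by 0.99 and 0.70. Without 18 h replicate 2 the count was 3, and the calls of mRpS30 and mRpL15 were lost. Without 6 h replicate 1 those of mRpL15, mRpS24 and mRpL38 were lost, without 6 h replicate 2 those of mRpS30 and mRpL38, and without 18 h replicate 1 those of mRpS24 and mRpL38. mRpL38 was lost without 18 h replicate 2 as well. Hemocyte markers fell for 4 of 5 genes in this step, with sums of 40.7 and 44.0 CPM at 6 h and 11.4 and 9.75 CPM at 18 h, and their part in the result was not tested.

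From 18 h to 24 h, 2 members rose and 2 fell, the fewest of the 5 steps, against 5.2% and 7.66% of all genes. A total of 17 had an unadjusted p under 0.05 in edgeR's test. With library totals, 0 were higher and 4 lower. mRpS21 read 17.2 and 18.5 CPM at 18 h and 28.4 and 42.4 at 24 h (log2 0.96, SE 0.28, adjusted p = 0.0429), and mRpS17 returned to 24.1 and 26.8 CPM (log2 0.74). mRpS35 fell to 7.50 and 10.4 CPM (log2 -1.05) and mRpL16 to 13.2 and 15.5 (log2 -0.88). The 4 calls rest on single libraries. The count fell to 0 without either L3 library, either 18 h library or 24 h replicate 1, and to 1 without 24 h replicate 2 or either 36 h library. The call of mRpS21 was also lost without either 44 h library.

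The step from 24 h to 36 h, which follows the exit of wing cells from the cycle, had the most members falling of the 5 steps. A total of 35 of 70 fell and 0 rose, whereas 17.7% of all genes fell and 19.4% rose. With library totals, which put the median log2 change of all genes at -0.41, 53 fell and 0 rose. The members' median log2 change was -0.75, and other genes of under 1000 exon bases had a median of -0.28. mRpL39, which resembles threonyl-tRNA synthetase, read 28.4 and 33.9 CPM at 24 h and 13.0 and 5.78 at 36 h (log2 -1.72, SE 0.30, adjusted p = 0.000936). mRpS18A read 24.8 and 27.3 CPM against 9.28 and 8.54 (log2 -1.54, SE 0.23, adjusted p = 0.000277). Both libraries of 36 h lay under those of 24 h for both genes. mRpS23 fell by 1.60, mRpL13 by 1.62 and mRpS24 by 1.43. The call of mRpL13 was lost without 24 h replicate 1 or 36 h replicate 2, and that of mRpS24 without 36 h replicate 2. The count was 13 without 24 h replicate 2, 21 without 36 h replicate 1 and 13 without 36 h replicate 2. Of other cell types' markers, 2 of 5 for muscle and 2 of 4 for neurons rose and 2 of 4 for wing epithelium fell in this step. Summed muscle markers went from 61.9 and 55.1 to 107 and 187 CPM, and neuron markers from 158 and 307 to 235 and 298 CPM. Their part in the result was not tested.

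From 36 h to 44 h, 12 members rose and 0 fell, against 15.4% and 13.2% of all genes. The median log2 change was 0.36. With library totals, 4 were higher and 2 lower. mRpL45, which in mammals helps to hold the ribosome at the inner membrane, read 7.43 and 12.3 CPM at 36 h and 23.2 and 24.9 at 44 h (log2 1.28, SE 0.26, adjusted p = 0.00256). mRpS18B rose by 1.16, mRpL38 by 1.09, mRpL37 by 0.92 and mRpL21 by 0.90. Without 44 h replicate 2 the count was 1, without 36 h replicate 1 it was 7 and without 36 h replicate 2 it was 6. All of the 4 genes after mRpL45 lost their call without 44 h replicate 2, mRpS18B and mRpL37 also without 36 h replicate 2, and mRpL21 also without 36 h replicate 1. The library on which these calls rest is the one with 1482 CPM of muscle markers, and the part of muscle in the result was not tested.

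Over the whole course from L3 to 44 h, 46 members fell and 0 rose, where 30.6% of all genes fell and 32.9% rose. mRpS24 went from 19.2 and 20.9 CPM to 3.04 and 6.50 (log2 -2.04, SE 0.35, adjusted p = 0.000256) and mRpS30 from 62.5 and 69.6 to 13.2 and 21.2 (log2 -1.93). mRpL27 fell by 1.80, mRpL23, which in bacteria lies at the exit of the peptide tunnel, by 1.70, and mRpL36 by 1.68. Without 44 h replicate 1 the count was 28, and with library totals all 70 fell. That scaling put the median log2 change of all genes at -0.85 and that of the members at -1.69. Members minus all genes gave -0.84 with TMM and -0.83 with library totals. The scaling shifts all genes by nearly the same amount, so these 2 values could not differ much and are not separate checks. Markers of muscle rose for 3 of 5 genes, of fat body for 3 of 3 and of neurons for 3 of 4, and their part in the result was not tested. Shares were close for both subunits in the wild type, although their difference was not tested. The mRpL genes gave 23 of 46 (50%) and the mRpS genes 12 of 24 (50%) that fell from 24 h to 36 h, and 65.2% and 66.7% from L3 to 44 h.

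**Figure D3:**
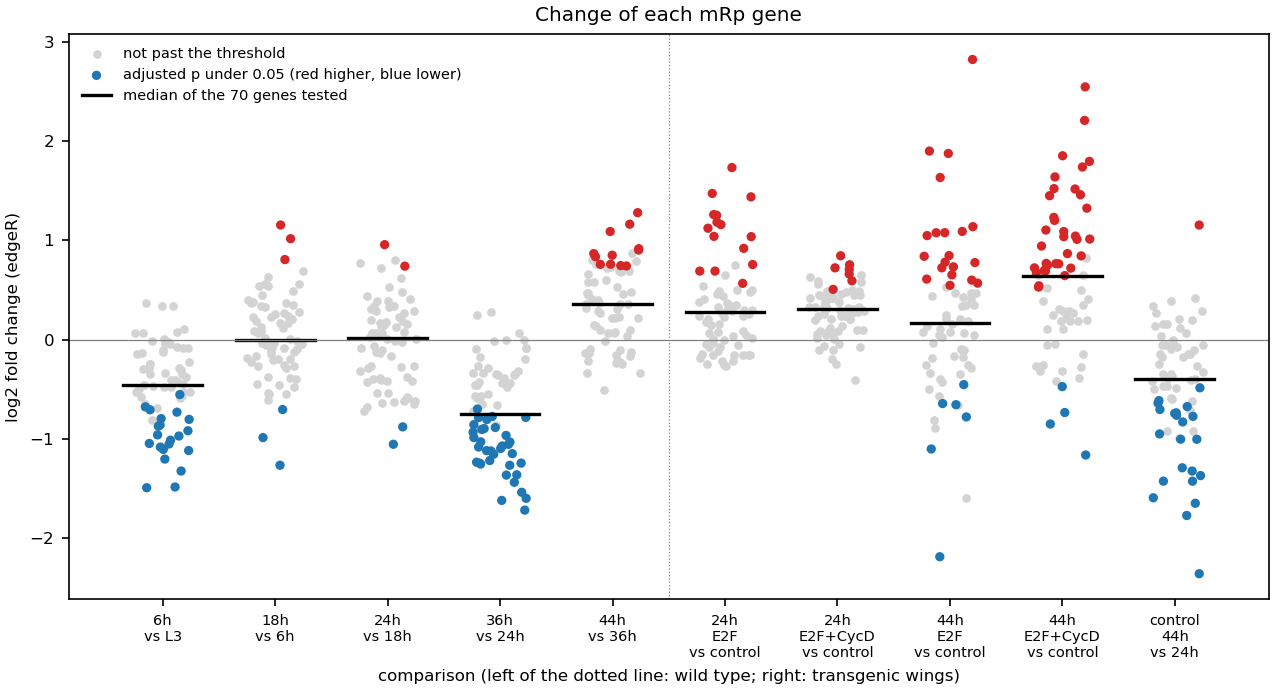
Fitted log2 fold change of each of the 70 tested mRp genes in 10 comparisons (left of the dotted line, wild type; right, transgenic), with colour for adjusted p under 0.05 (red higher, blue lower), grey for the rest and a bar at the median. The medians are -0.75 at 36 h against 24 h in the wild type and 0.65 for E2F+CycD against control at 44 h; points for the transgenic comparisons at the same time share their control libraries.

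The transgenes were read in the wings that should carry them. E2f1 stood at 432 and 473 CPM in the 24 h controls, 3785 and 3743 CPM in E2F wings and 1337 and 908 CPM in E2F+CycD wings. CycD stood at 58.8 and 60.8 CPM in the controls and 877 and 595 CPM in E2F+CycD wings. The 2 genotypes thus differed in E2F dose as well as in CycD and Cdk4. The chromosome that carried UAS-E2F1 and UAS-DP differed too. E2f1 and Dp were lower in E2F+CycD than in E2F wings at 24 h (log2 -1.75 and -2.44) and at 44 h (log2 -1.21 and -3.73).

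At 24 h, 15 members were higher in E2F wings than in controls and 0 were lower, against 15.5% and 8.18% of all genes. This is 15 of 70, and the median log2 change was 0.28. With library totals, which put the median log2 change of all genes at 0.16, 23 were higher and 0 lower. mRpL16 rose from 14.1 and 11.8 CPM to 42.0 and 44.1 (log2 1.73, SE 0.20, adjusted p = 6e-05). mRpS14 rose from 8.09 and 8.43 CPM to 22.0 and 23.9 (log2 1.47, SE 0.17, adjusted p = 6.78e-05). mRpS18A rose by 1.44, mRpL9 by 1.26 and mRpS25 by 1.25 on the log2 scale. The libraries of the 2 groups did not overlap for these 5 genes, and none lost its call when any single library was left out. Of the 15 higher members, 3 held the E2F letters and 4 the DRE in their start windows, against 9 and 11 of the other 55. The upstream stretch of mRpL16 printed above holds the DRE and the E-box. Markers moved in this comparison too. The wing genes nub and sd were lower (log2 -0.41 and -0.60), as were elav of neurons, trh of trachea, Mlc2 of muscle and Yp1 of fat body (log2 -0.37, -0.38, -0.95 and -5.34), and Mhc of muscle was higher (log2 2.07). The summed wing markers read 2291 and 2413 CPM in controls and 2031 and 2064 CPM in E2F wings. Their part in the result was not tested.

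In E2F+CycD wings at 24 h, 7 members were higher than in controls and 0 were lower, against 9.44% and 4.86% of all genes. The median change, 0.31, was close to that of E2F wings, which share these controls. With library totals, which put the median log2 change of all genes at 0.17, 14 were higher and 0 lower. Of 4 fat body markers, 2 were higher and 1 lower, with sums of 25.3 and 54.0 CPM in controls and 311 and 40.8 CPM in E2F+CycD wings, and their part in the result was not tested. mRpL36 read 7.54 and 6.64 CPM in controls and 13.0 and 12.4 CPM in E2F+CycD wings (log2 0.85, SE 0.19, adjusted p = 0.0134). mRpL35 rose by 0.75, mRpS25 by 0.72, mRpS14 by 0.71 and mRpL12, the stalk protein that contacts translation factors in bacteria, by 0.66. The calls depended on single libraries. The count was 0 without either 24 h control or E2F+CycD replicate 1, 3 without 24 h E2F+CycD replicate 2 or 44 h control replicate 2, and 4 without either 24 h E2F library.

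Set against each other at 24 h, 0 members were higher and 7 lower in E2F+CycD than in E2F wings, against 3.1% and 7.7% of all genes. mRpL16 read 42.0 and 44.1 CPM in E2F and 19.2 and 15.5 CPM in E2F+CycD wings (log2 -1.31, SE 0.19, adjusted p = 0.00151). mRpL9 was lower by a log2 difference of -1.05, mRpS18A by -1.07, mRpS22 by -0.77 and mRpS14 by -0.76. Of these 5 genes, all but mRpS22 are among the largest changes of E2F wings, and both comparisons use the same E2F libraries. The count was 3 without E2F replicate 1 or E2F+CycD replicate 2 and 2 without E2F replicate 2. mRpS18A and mRpS14 lost their calls in each of these cases, and mRpS22 without E2F replicate 2.

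In control wings, 22 members fell and 1 rose between 24 h and 44 h, where 26.4% of all genes fell and 27.4% rose. With library totals, which put the median log2 change of all genes at -0.98, 68 fell and 0 rose. The median log2 change was -0.40, against 0.03 for other genes of under 1000 exon bases. mRpS18A fell from 4.29 and 4.16 CPM to 0.85 and 0.78, which were 7 and 6 reads (log2 -2.36, SE 0.38, adjusted p = 0.000238). mRpL39 fell from 16.2 and 18.5 CPM to 5.01 and 5.19 (log2 -1.77, SE 0.17, adjusted p = 3.61e-06). mRpS30 fell by 1.65, mRpL24 by 1.59 and mRpL14 by 1.42. The exception was mRpL42, which rose from 20.5 and 20.4 CPM to 43.2 and 47.8 (log2 1.15, SE 0.14, adjusted p = 2.34e-05), although its call was lost with library totals (log2 0.20, adjusted p = 0.21). Of the 35 members that fell from 24 h to 36 h in the wild type, 16 (45.7%) also fell here, which is 72.7% of the 22. The 2 comparisons share no library, but they span different intervals. In the wild type, 35 of all 70 members fell from 24 h to 36 h, and 12 rose from 36 h to 44 h. The overlap was not tested, and none was made for all genes. In the controls, markers of fat body rose for 4 of 4 genes and of neurons for 3 of 4, and those of wing epithelium fell for 3 of 4, with wing sums of 2291 and 2413 CPM at 24 h and 1501 and 1771 CPM at 44 h. Their part in the result was not tested.

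At 44 h, E2F wings showed members moving both ways. Of 70 members, 20 were higher and 6 lower than in controls, against 19.3% and 20.9% of all genes, with a median log2 change of 0.17. With library totals, which moved the median of all genes from -0.07 to 0.54, 41 were higher and 1 lower. mRpS18A read 0.85 and 0.78 CPM in controls and 5.56 and 6.12 CPM in E2F wings (log2 2.82, SE 0.37, adjusted p = 0.000106). mRpL16 rose from 7.94 and 7.53 CPM to 23.7 and 34.1 (log2 1.90, SE 0.22, adjusted p = 4.53e-05) and mRpL40 from 1.95 and 2.21 to 6.83 and 8.49 (log2 1.88). mRpS26 rose by 1.14, and mRpL32, at 4 to 40 reads in these libraries, by 1.63. The 3 genes named with their levels did not overlap between the groups.

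All 6 members that were lower at 44 h carry large subunit names, as do 46 of the 70 tested. The small subunit genes mRpS24 and mRpS6 gave log2 -0.89 and -0.81 without passing edgeR's test (adjusted p = 0.0739 and 0.0687). A difference between the subunits was not tested. mRpL34, the homologue of one of the smallest bacterial ribosomal proteins, read 3.42 and 2.73 CPM in controls and 0.375 and 1.004 CPM in E2F wings, which were 5 and 11 reads (log2 -2.18, SE 0.51, adjusted p = 0.00498). mRpL30 read 23.6 and 22.1 CPM against 12.1 and 17.3 (log2 -0.64, SE 0.17, adjusted p = 0.0115). mRpL20, mRpL17 and mRpL51 were lower by log2 differences of -1.10, -0.78 and -0.65. These calls hang on few reads, single libraries or the scaling. With library totals, which moved the median of all genes from -0.07 to 0.54, only 1 member was lower. Without E2F replicate 1 the counts were 15 higher and 0 lower, without control replicate 1 they were 14 and 2, and without E2F replicate 2 they were 13 and 4. The calls of mRpL20, mRpL17 and mRpL51 lay between adjusted p = 0.0424 and 0.0492 and were lost when most single libraries were left out. mRpL30 was also lost without control replicate 1, and mRpL32 without control replicate 2 or E2F replicate 2. Neuron markers were lower in E2F wings for 3 of 4 genes, with sums of 272 and 308 CPM in controls and 183 and 199 CPM in E2F wings, and their part in the result was not tested.

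E2F+CycD wings at 44 h held the largest number of members above control among the 4 comparisons of this kind. Of 70 members, 34 were higher and 4 lower, where 24% of all genes were higher and 27.2% lower. The median log2 change was 0.65, against -0.12 for other genes of under 1000 exon bases. With library totals the median of all genes was 0.92 and that of the members 1.63, and 62 members were higher and 0 lower. mRpL39 read 5.01 and 5.19 CPM in controls and 22.1 and 25.1 CPM in E2F+CycD wings (log2 2.21, SE 0.17, adjusted p = 1.16e-06). mRpS18A rose from 0.85 and 0.78 CPM to 3.88 and 5.77 (log2 2.54, SE 0.37, adjusted p = 0.000151). mRpL36 rose from 3.42 and 2.21 CPM to 9.71 and 9.93 (log2 1.79, SE 0.23, adjusted p = 6.72e-05). In all 3 genes, both E2F+CycD libraries lay above both controls by more than 2-fold. mRpL21 rose by 1.85 and mRpS26 by 1.74. No single library, when left out, removed any of these 5 calls or moved the count of calls by over 1.5-fold.

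The 4 lower members were mRpL34, mRpS6, mRpL30 and mRpL42, with log2 differences of -1.16, -0.85, -0.73 and -0.47. mRpL30 read 23.6 and 22.1 CPM in controls and 14.7 and 12.8 CPM in E2F+CycD wings (SE 0.17, adjusted p = 0.0038). mRpL42 read 43.2 and 47.8 CPM against 32.0 and 33.6. mRpS6, mRpL30 and mRpL42 turned to higher in E2F+CycD wings with library totals (log2 0.14, 0.25 and 0.51). The call of mRpL42 was lost without control replicate 2 or E2F+CycD replicate 1, that of mRpS6 also without any 24 h control or E2F library, and that of mRpL34 without any 24 h library or any of the 4 libraries compared. Muscle markers were lower for 4 of 5 genes, with sums of 173 and 205 CPM in controls and 93.8 and 74.2 CPM in E2F+CycD wings, and neuron markers for 4 of 4 genes, with sums of 272 and 308 against 173 and 175 CPM. The muscle marker twi was at 0 in control replicate 1. Their part in the result was not tested.

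**Figure D4:**
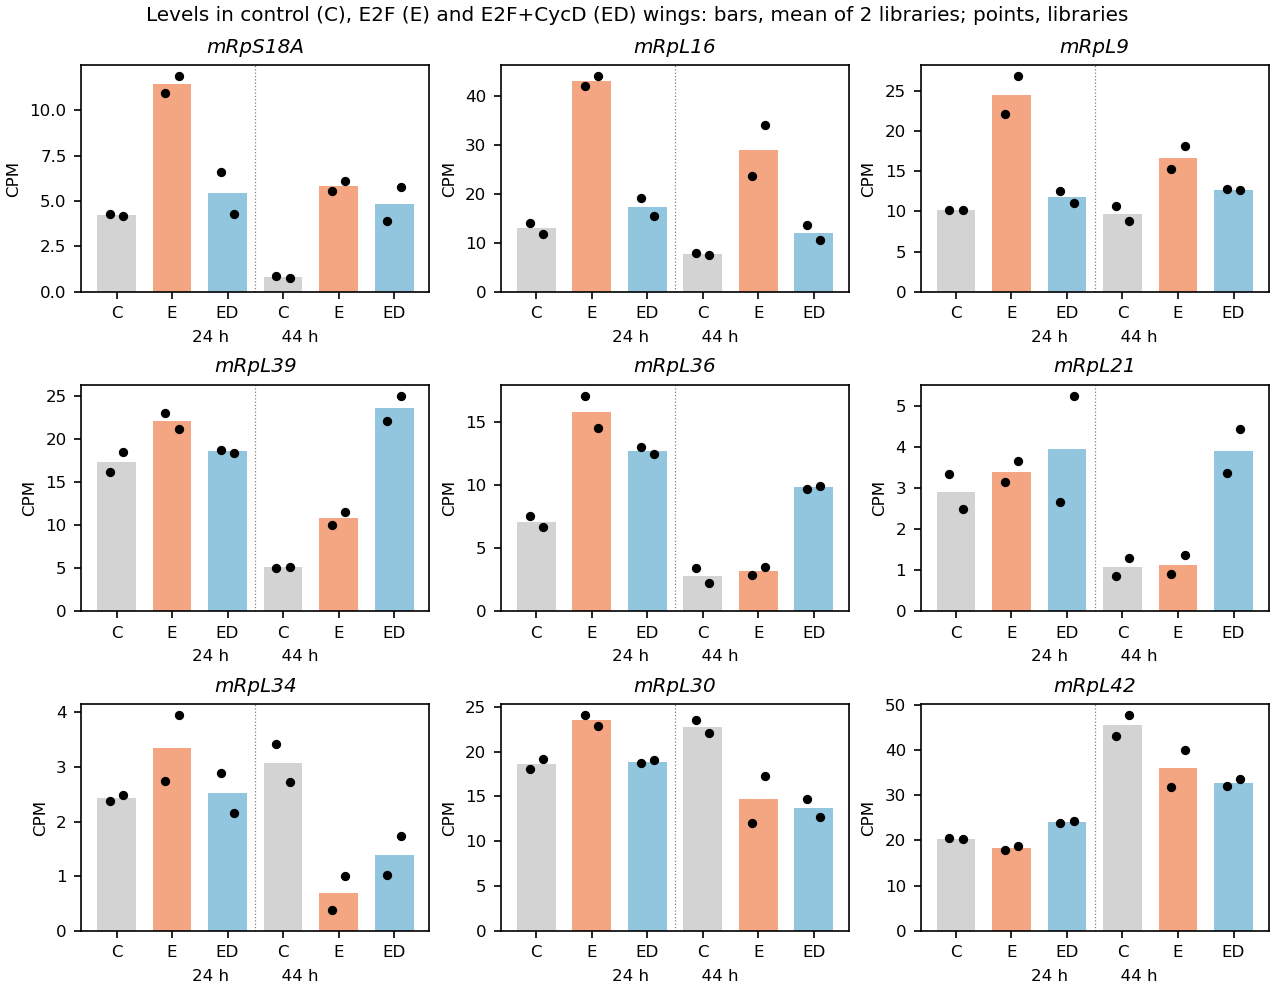
CPM of 9 mRp genes in control (C), E2F (E) and E2F+CycD (ED) wings at 24 h and 44 h APF, with bars for the mean of 2 libraries, points for the libraries and axes that start at 0. Among the 44 h groups, mRpL39, mRpL36 and mRpL21 have their highest mean in E2F+CycD wings, and mRpL30 and mRpL42 in controls, an order that library totals turn for E2F+CycD against control; mRpL16 is highest in E2F wings at both times.

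Against E2F wings at 44 h, 17 members were higher and 2 lower in E2F+CycD wings, against 11.1% and 14.3% of all genes. With library totals, which put the median log2 change of all genes at 0.30, 42 were higher and 1 lower. Muscle markers were lower for 3 of 5 genes, with sums of 132 and 196 CPM in E2F and 93.8 and 74.2 CPM in E2F+CycD wings, and their part in the result was not tested. The lower E2f1 and Dp RNA of the E2F+CycD wings applies here too. mRpL36 read 2.85 and 3.47 CPM in E2F and 9.71 and 9.93 CPM in E2F+CycD wings (log2 1.64, SE 0.22, adjusted p = 0.000386). mRpL39 rose from 10.1 and 11.5 CPM to 22.1 and 25.1 (log2 1.13, SE 0.15, adjusted p = 0.000338), and mRpL21, mRpL49 and mRpS21 were higher by 1.78, 1.11 and 1.03. mRpL16 read 23.7 and 34.1 CPM against 13.6 and 10.6 (log2 -1.25, SE 0.20, adjusted p = 0.00113), and mRpL40 was lower by a log2 difference of -0.86. The count was 8 without E2F replicate 1, 10 without E2F replicate 2, 12 without E2F+CycD replicate 1 and 6 without E2F+CycD replicate 2. mRpL21, mRpL49, mRpS21 and mRpL40 each lost their call without E2F+CycD replicate 2, mRpL21 also without E2F replicate 1, and mRpL49, mRpS21 and mRpL40 also without E2F replicate 2.

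The change of each effect between the 2 times was tested as an interaction. The E2F effect, as a signed log2 fold change, was more positive at 44 h for 1 member (mRpL39) and more negative for 3 (mRpL34, mRpL17 and mRpL30), against 8.19% and 10.5% of all genes. The 3 were above 0 at 24 h without passing the test (log2 0.46, 0.65 and 0.33) and lower than control at 44 h. With library totals, which put the median of all genes at 0.31, 7 members were more positive and 1 more negative. Among the 4 called were mRpL34 (log2 -2.64, SE 0.65, adjusted p = 0.0153) and mRpL39 (log2 0.73, SE 0.22, adjusted p = 0.0417), and both calls were lost without either 24 h control, 24 h E2F replicate 2 or 44 h E2F replicate 1. The count was 0 without 44 h E2F replicate 1, 1 without either 24 h control or 24 h E2F replicate 2 and 2 without 24 h E2F replicate 1. The E2F+CycD effect was more positive at 44 h for 11 members and more negative for 2 (mRpL30 and mRpL42), against 10.8% and 13.7% of all genes. With library totals, which put the median of all genes at 0.73, 48 were more positive and 0 more negative. mRpS18A (log2 2.18, SE 0.47, adjusted p = 0.00572) and mRpL39 (log2 2.11, SE 0.22, adjusted p = 8.5e-05) led this list, and both kept their call when any library was left out. The count was 3 without 24 h control replicate 1, 5 without 24 h control replicate 2, 8 without 24 h E2F+CycD replicate 1, 5 without 24 h E2F+CycD replicate 2, 8 without 44 h control replicate 1 and 4 without 44 h E2F+CycD replicate 1.

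The 3 genes of the mRpS18 group, all homologues of one bacterial protein, shared some calls and not others. Over L3 to 44 h all 3 fell, by 1.65, 0.69 and 1.06 on the log2 scale for mRpS18A, mRpS18B and mRpS18C. mRpS18A and mRpS18B also both fell from 24 h to 36 h (log2 -1.54 and -1.22), where mRpS18C gave -0.72 (adjusted p = 0.138). mRpS18A was higher in E2F wings at both times. mRpS18B fell from L3 to 6 h (log2 -0.68, adjusted p = 0.035), a call lost without L3 replicate 1 or 6 h replicate 1, and rose by 1.16 from 36 h to 44 h, where mRpS18A gave 0.31 (adjusted p = 0.35). In E2F wings mRpS18B gave log2 0.04 at 24 h and 0.34 at 44 h, with adjusted p = 0.94 and 0.37. mRpS18C gave log2 0.00 and 0.21 there. Whether the 3 genes differ from each other was not tested.

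Members were not always called together with the gene across their shared start region. In E2F wings at 24 h, 49 pairs were tested, and both genes were higher in 3, only the member in 3 and only the neighbour in 11. Only the neighbour was lower in 4. mRpL16 rose with trr (log2 1.73 and 1.0) and mRpL44 with Snr1, a chromatin remodelling gene (log2 1.12 and 1.03). mRpS7 gave log2 0.05 (adjusted p = 0.84) beside Cdk1 at 1.60, and mRpL21 gave 0.23 beside rept at 2.43. In E2F+CycD wings at 44 h, both genes were higher in 10 pairs, only the member in 9 and only the neighbour in 9, and 3 pairs moved in opposite directions. Only the member was lower in 2 pairs and only the neighbour in 4. There mRpL21 and rept both rose (log2 1.85 and 1.65), whereas mRpL39 rose by 2.21 beside Prosbeta2 at log2 0.00, a proteasome gene. From 24 h to 36 h in the wild type, both genes fell in 10 pairs, only the member in 11 and only the neighbour in 3. Only the neighbour rose in 3 pairs, and 3 moved in opposite directions. Such counts were not made for pairs of other genes, so whether members differ from them is not known. Of the 34 members higher in E2F+CycD wings at 44 h, 10 held the DRE in the start window, against 5 of the other 36. In E2F wings at 44 h these numbers were 8 of 20 against 7 of 50. For the fall from 24 h to 36 h in the wild type, the DRE was in 7 of 35 against 8 of the other 35. At 44 h the E2F letters were in 5 of 34 against 7 of 36 for E2F+CycD, and 3 of 20 against 9 of 50 for E2F. No such share was made for all genes called, and whether these shares differ was not tested.

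The members that fell from 24 h to 36 h in the wild type were set beside those that were higher in E2F+CycD wings at 44 h. Of all genes tested, 17.7% fell in that step and 24% were higher in those wings. Of the 35 that fell, 17 (48.6%) were among the 34 that were higher, and the other 17 came from the 35 that did not fall. These 2 comparisons share no library. The overlap was not tested, and none was made for all genes.

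Other genes of mitochondrial translation and of the cytosolic ribosome are set beside the members. tko and bonsai, which encode the mitoribosomal proteins S12 and S15 under older names, both fell from 24 h to 36 h (log2 -1.11 and -1.29) and between 24 h and 44 h in controls (log2 -0.91 and -0.78). Of 14 mitochondrial aminoacyl-tRNA synthetase genes, which charge the tRNAs, 11 fell from L3 to 6 h and 11 rose from 6 h to 18 h, where members gave 21 of 70 and 3 of 70. Of all genes, 22.3% fell in the first step and 22.3% rose in the second. Both steps use the 6 h libraries. In E2F+CycD wings at 44 h, 8 of the 14 were higher and 0 lower, against 24% and 27.2% of all genes. Of 12 mitochondrial translation factors, 4 were higher at 24 h and 5 at 44 h with E2F, and 1 at 24 h and 4 at 44 h with E2F+CycD, against 6, 10, 1 and 9 with library totals. The shares of all genes higher with TMM were 15.5%, 19.3%, 9.44% and 24% in the same order. At 24 h, mEFTu1, mEFTu2 and mRRF1 were lower in E2F+CycD than in E2F wings (log2 -1.42, -1.19 and -3.45). mEFTu1, the elongation factor that brings tRNAs to the ribosome, read 33.7 and 31.4 CPM in 24 h controls and 93.8 and 102 CPM in E2F wings (log2 1.59, SE 0.12, adjusted p = 2.7e-06). mtSSB, the single-stranded DNA binding protein of the mitochondrial genome, rose from 19.9 and 21.1 to 92.2 and 97.3 CPM (log2 2.21), more than any member.

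For the cytosolic ribosome the direction at 44 h depended on the scaling. With TMM, 74 of 79 cytosolic ribosomal protein genes were lower and 1 higher in E2F+CycD wings (median log2 -0.83), whereas with library totals 0 were lower and 7 higher (median log2 0.16). In E2F wings, 62 were lower and 1 higher with TMM (median log2 -0.60), and 2 lower and 3 higher with library totals (median log2 0.02). The 1 higher gene under TMM was RpLP0-like in both cases. In E2F+CycD wings the members' median was 0.65 with TMM and 1.63 with library totals, above that of the cytosolic list. The choice of scaling shifts all genes by nearly the same amount, so it cannot test the gap between the 2 lists. From 6 h to 18 h, 55 of 78 cytosolic genes fell, and 7 did with library totals. From 24 h to 36 h, 1 of 78 fell, and 13 did with library totals, against 35 and 53 of 70 members. Nuclear genes of oxidative phosphorylation, whose products join the proteins made on mitoribosomes, were lower for 28 of 66 and higher for 2 in E2F+CycD wings at 44 h, and lower for 0 and higher for 45 with library totals. Of all genes, 27.2% were lower and 24% higher there with TMM.

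**Figure D5:**
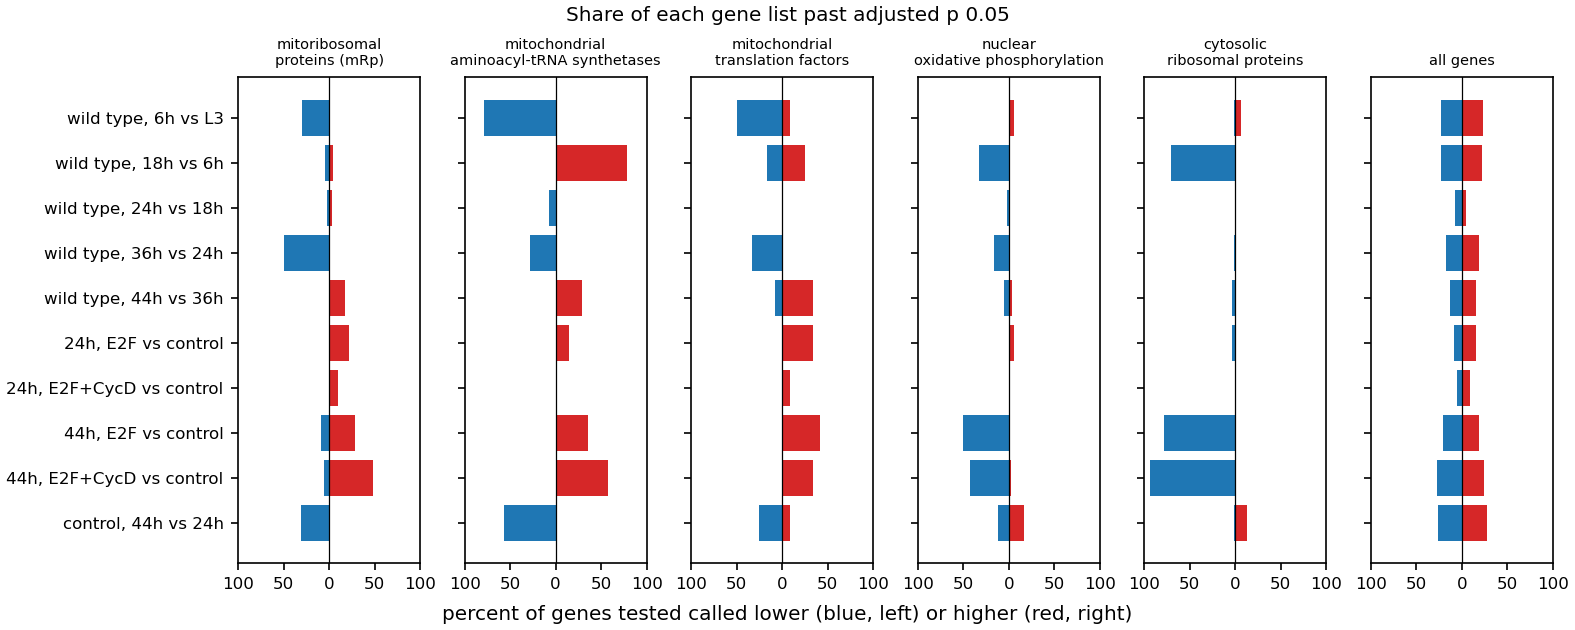
Percent of the tested genes of each list called lower (blue, to the left) or higher (red, to the right) at adjusted p under 0.05 in 10 comparisons, with all genes in the last panel. At 44 h in E2F+CycD wings, 34 of 70 mRp genes are higher whereas 74 of 79 cytosolic ribosomal protein genes are lower; with library totals 62 mRp genes are higher and 7 cytosolic genes are higher with 0 lower.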

How the data were processed

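RNA was measured in 24 libraries of female fly wings, 12 wild-type and 12 transgenic. The 34 FAIRE samples of the series were not analysed here. The authors deposited counts of reads per gene, made with STAR and HTSeq on the dm6 genome per the submitters' processing notes, without normalization and with replicates apart. The versions, the annotation release and the strand setting are not given in the sources used here. The libraries were made with a stranded mRNA kit. Each file lists 17559 genes by FlyBase identifier, and lines that name no gene were left out. Reads on no feature made up 6.34% to 15.2% per library. Symbols were matched for 17253 identifiers. Of symbols fitting the rule, 2 had no matching identifier among the counted genes and were not analysed here. Exon lengths and starts came from a Release 6 annotation in which 71 of 71 members have the same start and end as in RefSeq.

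The counts were fitted in R 4.3.3 with edgeR 4.0.16, the wild-type and the transgenic libraries apart, each group having its own coefficient and replicate numbers unused. Genes passed edgeR's filter (minimum count 10, minimum total 15), leaving 8669 genes in the wild type and 9636 in the transgenic wings. TMM set the library scaling. The p values of the quasi-likelihood F-test were adjusted by Benjamini-Hochberg over all genes tested. Standard errors were taken from the fold change and the F statistic. The common coefficient of variation between libraries of a group, beyond counting noise, came to 20.25% (wild type) and 16.44% (transgenic). It may be technical. A floor of 3 reads corresponds to 0.328 to 1.41 CPM in the wild-type and 0.146 to 0.389 CPM in the transgenic libraries. Procedures were tested on simulated data.

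The genes named were, in each comparison, up to 5 per direction with the largest change among those called, up to 3 called against the majority, the 5 widest and 3 narrowest stage ranges, the 3 highest and lowest per exon kilobase, members that peak at a stage where under 5 members do, those removed by the filter, the mRpS18 genes, tko and bonsai. Other genes of the lists and neighbours were named as examples after their values were seen. The members, the gene lists and the rules were chosen with earlier results of these data known. The alternatives were DESeq2 1.42.0, RLE scaling, library totals, no filter, a fold change over 2, the replicate block, fits to the compared groups alone, and fits that omit a single library. Figures were drawn with matplotlib 3.10.9.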

Additional observations from a re-analysis of the deposited data

Results flagged for a closer look

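A transgene effect, as a signed log2 fold change, differed between 24 h and 44 h for 17 values over 15 members, each by an interaction term in edgeR's quasi-likelihood test with Benjamini-Hochberg adjustment over all genes. As log2 differences of the effect at 44 h minus that at 24 h, the E2F effect gave -2.64 for mRpL34, -1.43 for mRpL17, -0.97 for mRpL30 and 0.73 for mRpL39. The E2F+CycD effect gave -0.75 for mRpL30 and -0.71 for mRpL42, both reversed in sign with library totals, and 0.70 for mRpL15. It gave 0.94 for mRpS10, 0.95 for mRpL36, 0.97 for mRpL44, 1.0 for mRpL3, 1.01 for mRpL4, 1.19 for mRpL48, 1.23 for mRpL24 and 1.25 for mRpS26. The values for mRpL39 and mRpS18A were 2.11 and 2.18. mRpL39 is in both sets, with its control level falling from 16.2 and 18.5 CPM at 24 h to 5.01 and 5.19 CPM at 44 h. The E2F and E2F+CycD effects share their control libraries.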

How the results depend on the processing

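Counts are of members called in each comparison, and the cause of each move was not tested. With library totals they were 60 (6 h against L3), 30 (18 h against 6 h), 53 (36 h against 24 h), 6 (44 h against 36 h), 70 (44 h against L3), 23 and 14 (E2F and E2F+CycD at 24 h), 42 and 62 (at 44 h), 43 (E2F+CycD against E2F at 44 h), 68 (control, 44 h against 24 h), and 8 and 48 (change of the E2F and E2F+CycD effects). This scaling also shifted the median of all genes. The log2 shift was -0.85 for 44 h against L3, -0.95 for the controls and 0.98 for E2F+CycD at 44 h. Library totals turned mRpS6, mRpL30 and mRpL42 in E2F+CycD wings at 44 h to log2 0.14, 0.25 and 0.51. The effect changes of mRpL30 and mRpL42 turned to 0.077 and 0.12. With a fold change over 2, counts were 10, 3, 1, 23, 3 and 29 for the 6 wild-type comparisons in the same order with 24 h against 18 h in its place, then 0 for E2F+CycD at 24 h, 3 for E2F+CycD against E2F at 24 h, 11, 20 and 6 for the comparisons at 44 h, 12 for the controls, and 2 and 6 for the effect changes. DESeq2 gave 1 (24 h against 18 h), 22 (36 h against 24 h), 6 (44 h against 36 h) and 4 (E2F+CycD at 24 h), and RLE scaling gave 4 for the last. With only the compared groups, 3 (18 h against 6 h) and 11 (E2F at 44 h) were called. Every other count of calls under these settings and without the filter was within 1.5-fold.

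With each library left out in turn, counts ran from 9 to 24 (6 h against L3), 3 to 8, 0 to 5, 13 to 36 and 1 to 18 for the following steps, 28 to 50 (44 h against L3) and 47 to 62 (any stage). In the transgenic wings they ran from 11 to 16 (E2F), 0 to 8 (E2F+CycD) and 2 to 7 (against each other) at 24 h, 15 to 22, 29 to 39 and 6 to 26 at 44 h, 17 to 28 for the controls, and 0 to 5 and 3 to 15 for the effect changes. The replicate numbers do not pair the libraries by the labels, and deviations of same-numbered libraries correlated at -0.16 to 0.21 over all pairs of groups. With the replicate block, counts were within 1.5-fold in all 16 comparisons, for example 37 for 36 h against 24 h and 38 for E2F+CycD at 44 h. The 2 libraries per group and the lower depth of the wild-type libraries limit what can be called, and members at under 10 reads, such as mRpS18A in 44 h controls, rest on few molecules.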

Other observations

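Genes that copy and transcribe the mitochondrial genome were read beside the ribosomal genes, as examples chosen after their values were seen. Of 6 tested, 4 fell from L3 to 6 h, 5 fell in controls between 24 h and 44 h, and 5 were higher in E2F+CycD wings at 44 h. The shares of all genes were 22.3%, 26.4% and 24%. TFAM, which packages the mitochondrial DNA, read 74.4 and 74.0 CPM at L3 and 27.1 and 22.8 CPM at 6 h (log2 -1.57, SE 0.19, edgeR adjusted p = 3.44e-05). PolrMT, the mitochondrial RNA polymerase, fell in controls from 19.8 and 19.0 CPM to 8.06 and 10.8 CPM (log2 -1.04, SE 0.17, edgeR adjusted p = 0.000324).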
